A study of Mus musculus with 9 samples.

Results

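Autophagy and lysosome genes were examined in the tibialis anterior muscle of DEX + TE, DEX and control mice, and 46 of the 47 genes on the list were measured, among 18193 genes in all. No gene of the list passed the test in any comparison when 1 probe set stood for each gene. Few genes passed at all: of 13676 tested, 83 in DEX against control, 1 in DEX + TE against DEX and 62 in DEX + TE against control muscle. The clearest value was at Lamp2, a main glycoprotein of the lysosomal membrane. A further Lamp2 probe set was 1.57-fold higher in DEX muscle than in control muscle and passed. The call was lost in 14 of 18 alternative settings, among them leaving out any 1 array and a Rank Product test that is not read as evidence. The LC3 gene Map1lc3a, the kinase gene Ulk2 and the transcription factor gene Tfeb had higher signals on all DEX arrays than on all control arrays, by 1.28-fold to 1.38-fold, without passing. Wipi1 and the related kinase gene Ulk1 had lower signals on all DEX arrays, also without passing. Such separation held upward for 7 listed genes (15.2%, against 9.69% of all genes) and downward for 4 (8.70%, against 13.6%). Ctsk, a collagen-cleaving cathepsin, had 0.476 of the control signal in DEX muscle and 1.71 times the DEX signal in DEX + TE muscle, also without passing.

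The genes were listed by their known function, though the list was drawn up with earlier results of these data known. They comprise 25 genes that build the autophagosome, 18 of the lysosome, the transcription factor genes Tfeb and Tfe3, and the mitophagy kinase gene Pink1. The remaining gene of the list is not analysed here. Each gene was represented by the probe set with the highest mean over the 9 arrays, and all 46 passed the filter on low signal, which required a geometric mean of at least 50 in 1 or more groups.

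The arrays measured RNA of male C57BL/6J mice aged 15 weeks, with 3 mice in each group and 1 array per mouse. DEX + TE mice received a diet with 2% turmeric extract (TE, a water extract of Curcuma longa rhizome) and daily intraperitoneal dexamethasone (DEX, a synthetic glucocorticoid) at 5 mg/kg for 7 days. DEX mice received the same injections on the AIN93-based diet without TE, and control mice received saline on that diet. The diets began 5 days before the first injection according to the growth protocol, although the sample titles place the extract after DEX. The mice were picked for body and muscle weights near their group's average, so the spread between these arrays may be smaller than that between mice in general. No group received TE without DEX.

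Autophagy encloses part of the cytoplasm in a double membrane, the autophagosome, which fuses with the lysosome, where acid hydrolases break the contents down. The ULK kinase complex starts the process, a phosphatidylinositol 3-kinase complex marks the membrane, and a conjugation system attaches proteins of the ATG8 family, such as LC3, to it. In skeletal muscle the pathway is one of the main routes of protein breakdown beside the proteasome, and glucocorticoids are known to cause muscle wasting. TFEB and TFE3 are known to bind E-box motifs in the promoters of many lysosomal genes, and FOXO factors are known to act on autophagy genes in wasting muscle.

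Probe sets reaching a signal of 50 made up 62.6% to 65.2% of the total on the DEX + TE arrays, 58.5% to 60.0% on the DEX arrays and 59.5% to 62.9% on the control arrays. All 12 muscle fiber markers were at 50 or more on every array and summed to 626100 to 674000 in DEX + TE muscle, 510600 to 644800 in DEX muscle and 647700 to 896700 in control muscle. The 4 adipocyte markers measured summed to 1825 to 2773 in DEX + TE muscle, 1166 to 1423 in DEX muscle and 497 to 702 in control muscle, and the part of either list in the results was not tested. The 4 liver and kidney markers summed to between 92.5 and 230 on all arrays. In whole muscle, fewer cells of a type and less RNA per cell cannot be told apart. The within-group SD had a median of 0.12 log2 units over the listed genes, against 0.24 over all genes tested. Among the DEX arrays, replicate 1 was the highest of its group for 26 of the 46 genes. Signals are linear and in arbitrary units, and levels of different probe sets were not set against each other, apart from being added in the marker sums.

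Promoter sequences show where the known E-box letters lie in these genes. RefSeq promoter windows of GRCm38.p6, running from 250 bases before to 50 bases after the start, were found for 36 of the genes. The E-box CACGTG, which reads the same on both strands, was present in 13 of the 36 genes (36.1%), against 8.09% of the 27025 genes with such windows. It was present in 8 of 14 lysosome genes and 5 of 19 autophagosome genes. The longer TCACGTGA, which contains the E-box and also reads the same on both strands, was present in 6 genes (16.7%), against 1.12% of all genes, and 5 of these 6 were lysosome genes. GTAAACA, the FOXO-type motif searched on both strands, was in none of the 36 genes, against 4.05% of all genes. A match is a description of letters and not a binding site.

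Stretches upstream of the start are shown for the genes that hold the longer motif there, with the motif in capitals, and for Lamp1, which holds 4 E-boxes (capitals) close together. They lie on GRCm38.p6 at chr16:45158732-45158789 (Atg3, plus strand), chr2:164833735-164833772 (Ctsa, plus strand), chr7:142387894-142387951 (Ctsd, minus strand), chr8:3500448-3500505 (Mcoln1, plus strand), chr16:44139359-44139416 (Atp6v1a, minus strand) and chr8:13159075-13159160 (Lamp1, plus strand).
Atg3: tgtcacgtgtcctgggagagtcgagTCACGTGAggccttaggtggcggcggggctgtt
Ctsa: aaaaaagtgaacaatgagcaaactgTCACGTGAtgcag
Ctsd: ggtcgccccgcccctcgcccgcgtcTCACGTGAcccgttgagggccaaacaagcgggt
Mcoln1: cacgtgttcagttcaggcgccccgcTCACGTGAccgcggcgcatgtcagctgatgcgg
Atp6v1a: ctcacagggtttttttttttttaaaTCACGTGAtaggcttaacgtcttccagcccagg
Lamp1: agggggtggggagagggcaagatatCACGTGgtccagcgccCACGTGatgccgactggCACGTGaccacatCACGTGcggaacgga

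None of these 6 genes reached an unadjusted p under 0.05 in any comparison. Their log2 fold changes in DEX against control muscle lay between -0.12 (Atg3) and 0.21 (Atp6v1a).

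The first question was how DEX injection affected these genes. limma was fitted across all probe sets with Benjamini-Hochberg adjustment, and a call needed an adjusted p under 0.05 and a log2 fold change of at least 0.6 in size. By this rule 0 of the 46 genes were called in DEX against control muscle, where 0.502% of the 29269 probe sets tested were called. At an unadjusted p under 0.05, 5 genes (10.9%) were higher, against 6.19% of all 13676 genes tested, and 3 (6.52%) were lower, against 9.16%. The arrays of DEX and control muscle did not overlap for 7 genes that were higher (15.2%, against 9.69% of all genes) and 4 that were lower (8.70%, against 13.6%). The median log2 fold change was 0.05 for the autophagosome genes and 0.11 for the lysosome genes, against -0.03 for all genes tested. With 3 arrays against 3, an exact two-sided permutation test of a single gene cannot go below p = 0.10.

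The second question was whether TE supplementation altered these genes under DEX. In DEX + TE against DEX muscle, 0 of the 46 genes were called, where 0.0137% of all probe sets were. At an unadjusted p under 0.05, 1 gene (2.17%) was higher, against 5.95% of all genes tested, and 1 (2.17%) was lower, against 1.48%. Arrays did not overlap for 2 genes that were higher (4.35%, against 9.75%) and 4 that were lower (8.70%, against 5.25%). The medians were -0.06 for the autophagosome genes and -0.08 for the lysosome genes, against 0.04 for all genes. This split depended on the scaling: with each array centred on its median, 20 genes (43.5%, against 15.5% of all genes) lay lower and 1 (2.17%, against 1.93%) lay higher with unadjusted p below 0.05, and the median of all genes moved to -0.22. The listed genes had a smaller within-group SD than all genes (median of 0.12 against 0.24 log2 units). Its part in the larger share of listed genes was not tested. Relative to all genes the medians were -0.10 and -0.12 under both scalings. That agreement was fixed in advance, since centring moves every gene of a comparison by the same amount. With quantile normalization the medians relative to all genes were -0.04 and -0.08.

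In DEX + TE against control muscle, 0 of the 46 genes were called, where 0.379% of all probe sets were. At an unadjusted p under 0.05, 3 genes (6.52%) were higher, against 7.69% of all genes, and 3 (6.52%) were lower, against 6.77%. Arrays did not overlap for 6 genes that were higher (13.0%, against 12.5%) and 6 that were lower (13.0%, against 12.3%). With each array centred on its median, 0 genes lay higher, against 3.55% of all genes, and 10 (21.7%, against 13%) lay lower with unadjusted p below 0.05, and the median of all genes was -0.13. The part of the smaller within-group SD of the listed genes was not tested here either. The 3 comparisons share arrays, so their values are given side by side and were not counted as separate evidence.

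**Figure D1:**
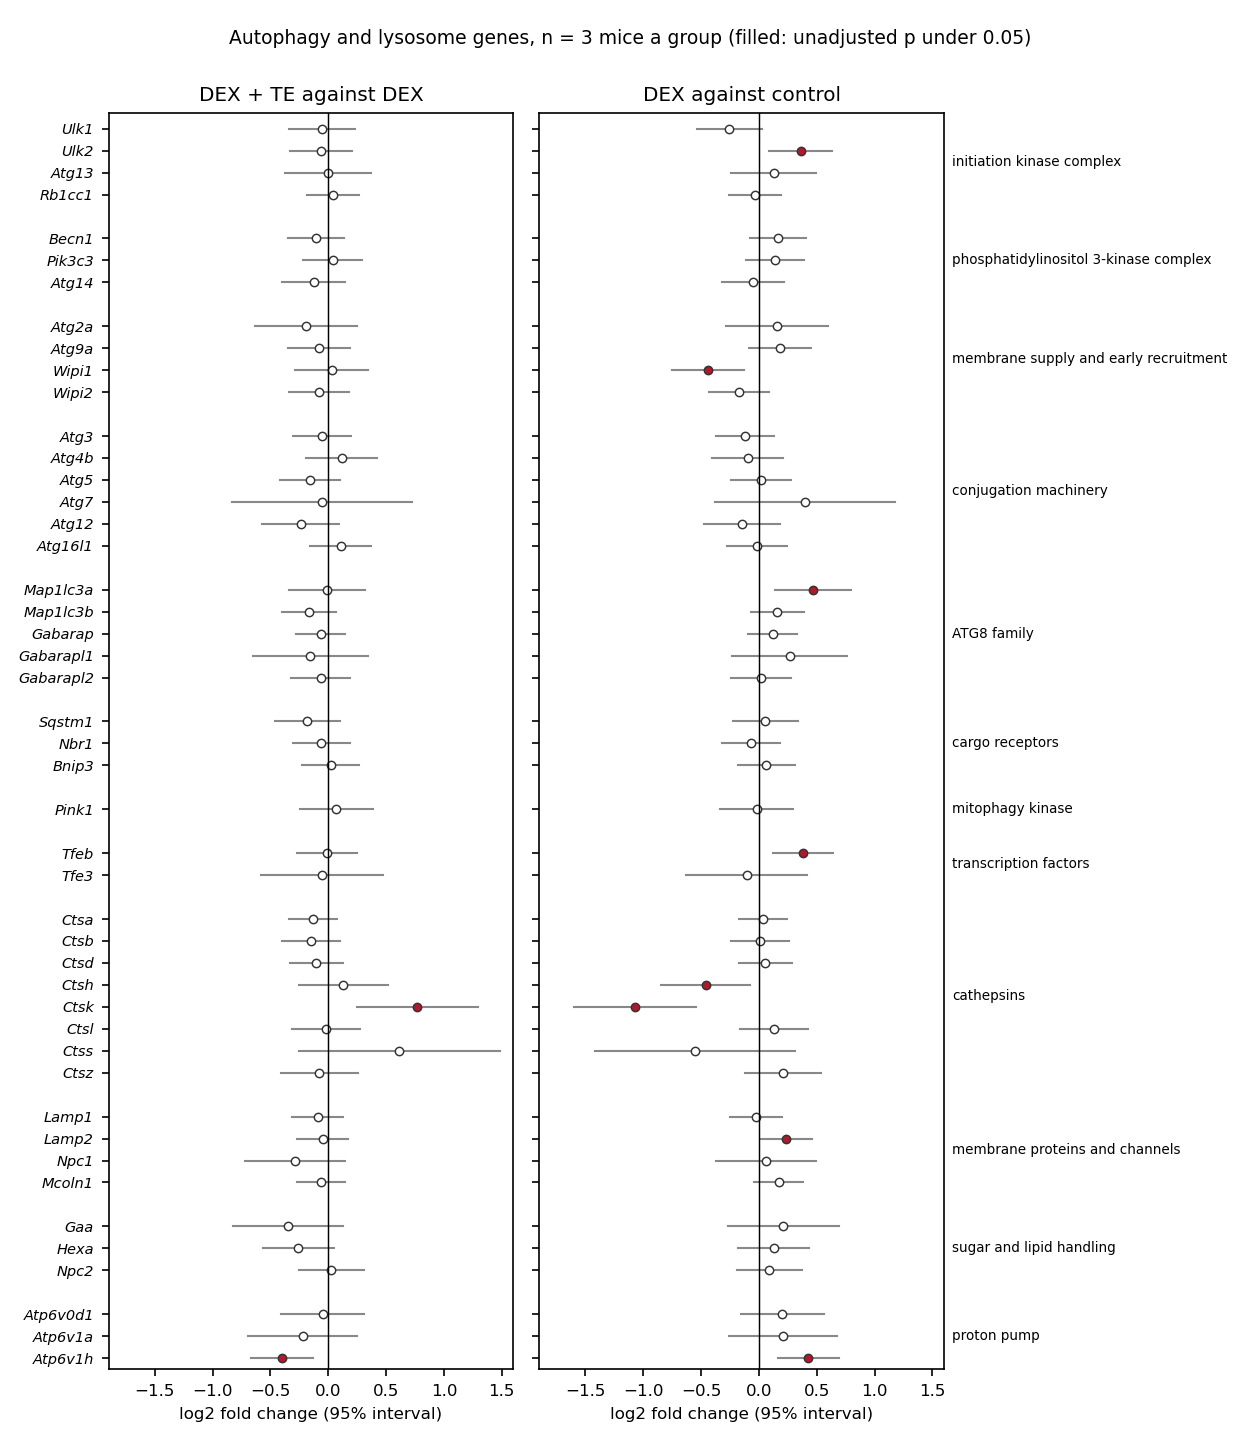
Log2 fold change (points) and 95% interval (lines) of each of the 46 genes, grouped by role, in DEX + TE against DEX muscle and in DEX against control muscle, from limma with 3 mice per group. Filled points have an unadjusted p under 0.05, which holds for 2 genes in the left panel and 8 in the right panel, and Ctsk lies farthest from 0 in both.

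**Figure D2:**
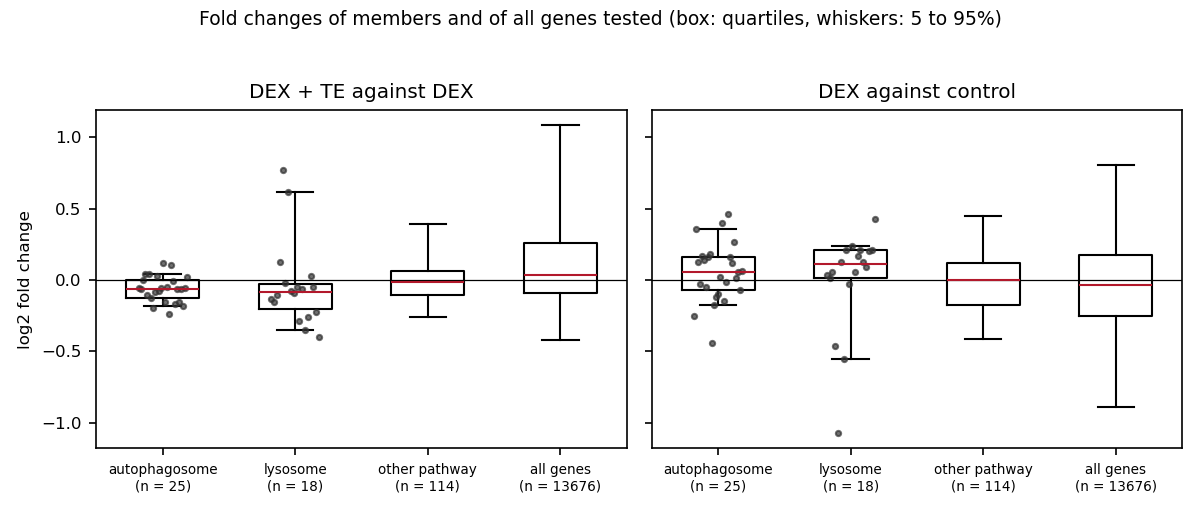
Log2 fold changes of the 25 autophagosome genes, the 18 lysosome genes, 114 other genes of the pathway and all 13676 genes tested, with boxes at the quartiles, whiskers at 5 and 95% and points for single genes. The boxes of the listed genes lie around 0 within the spread of all genes, with medians of 0.05 and 0.11 in DEX against control muscle.

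Of the 4 genes of the initiation kinase complex, Ulk2 and Ulk1, which encode related kinases, had opposite signs in DEX against control muscle. Ulk2 had signals of 4198, 3610 and 3968 in DEX + TE muscle, 4545, 3761 and 4021 in DEX muscle and 3006, 3413 and 3168 in control muscle. Every array of both DEX-injected groups lay above every control array, and those groups overlapped each other. On the log2 scale the fold change was 0.36 ± 0.12 in DEX against control muscle (limma adjusted p = 0.224), 0.30 ± 0.12 in DEX + TE against control muscle and -0.06 ± 0.12 in DEX + TE against DEX muscle (SE). The further Ulk2 probe sets had 0.27 ± 0.11, 0.20 ± 0.14 and, for a dim one, -1.18 ± 0.90 in DEX against control muscle. Only the first of these separated the 2 groups.

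Ulk1 had signals of 1325, 1542 and 1413 in DEX + TE muscle, 1705, 1329 and 1428 in DEX muscle and 1780, 1799 and 1717 in control muscle. All control arrays lay above all the others. Its log2 fold change was -0.25 ± 0.12 in DEX against control muscle (limma adjusted p = 0.393) and -0.31 ± 0.12 in DEX + TE against control muscle (adjusted p = 0.328). A dimmer Ulk1 probe set had -0.08 ± 0.14 in DEX against control muscle, with overlapping arrays. In DEX + TE against control muscle that set had -0.35 ± 0.14, without overlap. Atg13 and Rb1cc1, which encode scaffold subunits of the complex, had log2 fold changes of 0.13 and -0.03 in DEX against control muscle, with overlapping arrays.

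The phosphatidylinositol 3-kinase complex, represented by Becn1, Pik3c3 and Atg14, had log2 fold changes from -0.05 to 0.17 in DEX against control muscle and from -0.13 to 0.04 in DEX + TE against DEX muscle, and all arrays of these groups overlapped. Among the genes of membrane supply and early recruitment, Wipi1, which encodes a phosphoinositide-binding protein of the forming autophagosome, had signals of 2850, 2728 and 2996 in DEX + TE muscle, 2352, 3132 and 2974 in DEX muscle and 3519, 3798 and 4113 in control muscle. The control arrays were the highest, with no overlap with either DEX-injected group. Its log2 fold change was -0.44 ± 0.13 in DEX against control muscle (limma adjusted p = 0.205) and -0.41 ± 0.13 in DEX + TE against control muscle (adjusted p = 0.254). All 5 other Wipi1 probe sets tested also had negative values in DEX against control muscle, and the one with the smallest p had -0.41 ± 0.09 (adjusted p = 0.113). Wipi2, Atg2a and Atg9a had values from -0.17 to 0.18 there.

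The 6 genes of the conjugation machinery had log2 fold changes from -0.15 to 0.40 in DEX against control muscle, and none reached an unadjusted p under 0.05. Atg7, the gene of the activating enzyme, had the widest spread, with an interval from -0.38 to 1.18. Atg12, which encodes a ubiquitin-like protein, had signals of 841, 791 and 646 in DEX + TE muscle, 937, 766 and 985 in DEX muscle and 1003, 986 and 968 in control muscle. All DEX + TE arrays lay below all control arrays and overlapped the DEX arrays. The log2 fold change was -0.39 ± 0.14 in DEX + TE against control muscle (limma adjusted p = 0.302) and -0.24 ± 0.14 in DEX + TE against DEX muscle (adjusted p = 0.727).

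By their brightest probe sets, all 5 ATG8 family genes had values above 0 in DEX against control muscle and below 0 in DEX + TE against DEX muscle. Of the 5, 1 had an unadjusted p under 0.05 in the first comparison and 0 in the second. The 2 comparisons share the DEX arrays. A dimmer Gabarapl2 probe set went the other way in both (-0.14 and 0.34), while the other further probe sets tested for the family kept these signs. Map1lc3a had signals of 29480, 30100 and 27480 in DEX + TE muscle, 27930, 31700 and 27980 in DEX muscle and 25670, 18630 and 19670 in control muscle. Both DEX-injected groups lay above control muscle and overlapped each other. The log2 fold change was 0.47 ± 0.14 in DEX against control muscle (limma adjusted p = 0.205), 0.46 ± 0.14 in DEX + TE against control muscle (adjusted p = 0.236) and -0.01 ± 0.14 in DEX + TE against DEX muscle. Its other probe set had signals of 8383, 7687 and 8016 in DEX + TE muscle, 9635, 8993 and 8107 in DEX muscle and 6455, 5479 and 6031 in control muscle. The same groups were separated there, with a log2 fold change of 0.57 ± 0.11 in DEX against control muscle (adjusted p = 0.0862). For DEX against control muscle, the paper lists MAP1LC3A with a positive log ratio among the FoxO3 genes that met its cut-offs.

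Map1lc3b, which encodes the LC3 protein most used as a marker of autophagosomes, had signals of 10820, 11120 and 9646 in DEX + TE muscle, 12150, 11190 and 12050 in DEX muscle and 10850, 10820 and 10000 in control muscle. All DEX arrays lay above the others, by a small margin. The log2 fold change was 0.16 ± 0.10 in DEX against control muscle, with an interval from -0.07 to 0.39, and -0.17 ± 0.10 in DEX + TE against DEX muscle. Gabarapl1, a GABARAP family gene, had signals of 767, 862 and 1065 in DEX + TE muscle, 926, 870 and 1209 in DEX muscle and 644, 901 and 963 in control muscle, with all groups overlapping. Its log2 fold change in DEX against control muscle was 0.27 ± 0.21, and those of Gabarap and Gabarapl2 were 0.12 and 0.02.

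Among the cargo receptors, Sqstm1, the gene of p62, which links ubiquitinated cargo to LC3, had signals of 6488, 7700 and 6672 in DEX + TE muscle, 8052, 7107 and 8458 in DEX muscle and 8151, 7004 and 7592 in control muscle. Its groups overlapped, and the log2 fold change in DEX against control muscle was 0.05 ± 0.12, with an interval from -0.23 to 0.33. Bnip3, a receptor gene for mitochondria, had signals of 15510, 16890 and 16250 in DEX + TE muscle, 16360, 16030 and 15540 in DEX muscle and 17260, 14280 and 14500 in control muscle. Those groups overlapped as well, and the interval in DEX against control muscle ran from -0.18 to 0.31. Nbr1 and the mitophagy kinase gene Pink1 had values of -0.07 and -0.02 in DEX against control muscle.

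The transcription factor gene Tfeb, a known regulator of lysosomal genes, had signals of 1243, 1396 and 1169 in DEX + TE muscle, 1379, 1240 and 1210 in DEX muscle and 1018, 912 and 1005 in control muscle. Every array of the DEX-injected groups lay above every control array. The log2 fold change was 0.38 ± 0.11 in DEX against control muscle (limma adjusted p = 0.188), 0.37 ± 0.11 in DEX + TE against control muscle (adjusted p = 0.222) and -0.01 ± 0.11 in DEX + TE against DEX muscle. The related Tfe3 had values of -0.11, -0.16 and -0.05 in these comparisons, with overlapping arrays.

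**Figure D3:**
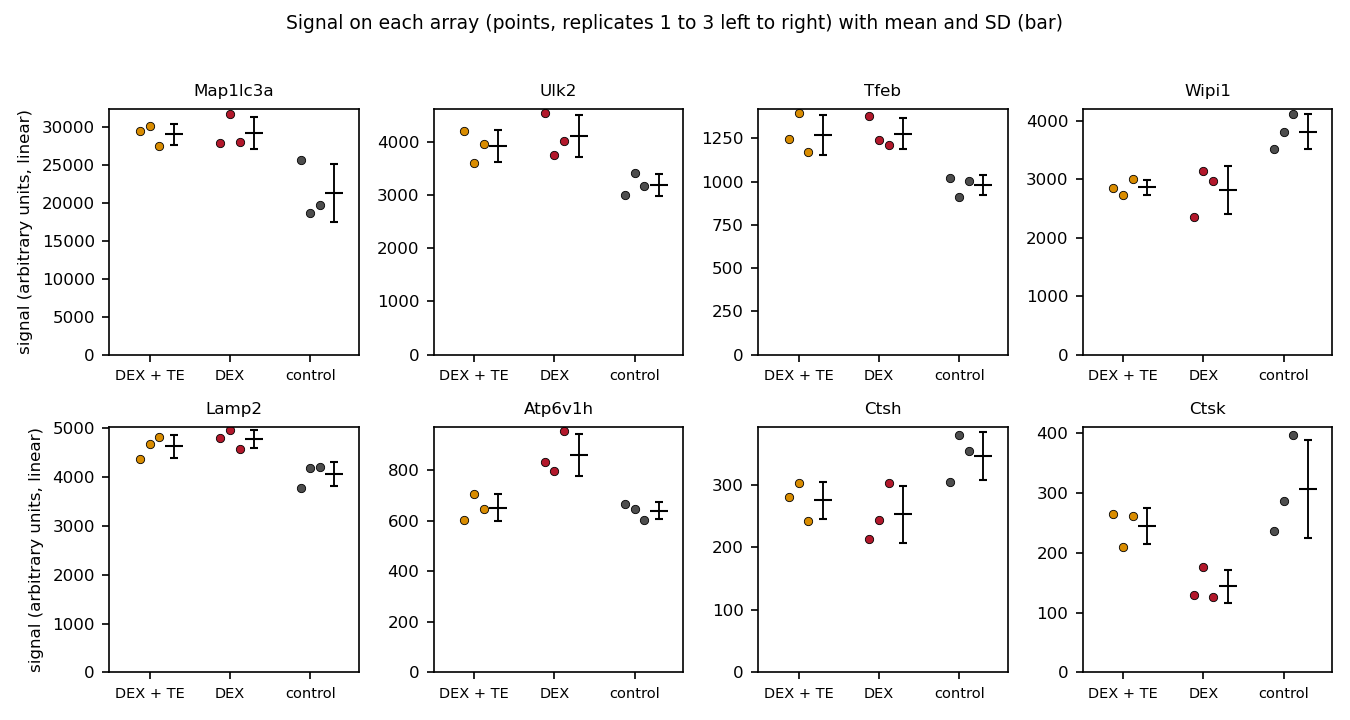
Signal (linear, arbitrary units) on each array of DEX + TE, DEX and control muscle, with the mean and SD of 3 arrays beside the points, for 8 genes. Map1lc3a, Ulk2, Tfeb and Lamp2 were higher on all DEX arrays than on all control arrays, Wipi1, Ctsh and Ctsk were lower, and Atp6v1h was highest in DEX muscle.

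The 8 cathepsins, proteases of the lysosome, had values of both signs in DEX against control muscle. Ctsk had signals of 264, 209 and 260 in DEX + TE muscle, 130, 176 and 127 in DEX muscle and 236, 286 and 396 in control muscle. All DEX arrays lay below all arrays of both other groups, which overlapped each other. The log2 fold change was -1.07 ± 0.22 in DEX against control muscle (limma adjusted p = 0.102), the farthest from 0 of the 46 genes in that comparison, and 0.77 ± 0.22 in DEX + TE against DEX muscle (adjusted p = 0.510). In DEX against control muscle Ctsk was called only when limma's variance prior followed signal (adjusted p = 0.0245), among 19 alternative settings whose adjusted p reached 0.441.

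Ctsh and Ctss are named after their values were seen. Ctsh had signals of 280, 302 and 243 in DEX + TE muscle, 214, 243 and 303 in DEX muscle and 305, 380 and 355 in control muscle, and the log2 fold change in DEX against control muscle was -0.46 ± 0.16 (limma adjusted p = 0.265). Ctss, which is known from antigen-presenting cells, had signals of 482, 489 and 486 in DEX + TE muscle, 294, 294 and 369 in DEX muscle and 240, 700 and 601 in control muscle. All DEX + TE arrays lay above the DEX arrays, while control replicate 1 lay below every other array.

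Ctsl, the cathepsin gene best known in muscle wasting, had signals of 7174, 8552 and 7858 in DEX + TE muscle, 9195, 7356 and 7401 in DEX muscle and 7600, 6932 and 7281 in control muscle. The groups overlapped, and the log2 fold change in DEX against control muscle was 0.13 ± 0.13, with an interval from -0.17 to 0.42. Ctsa, Ctsb, Ctsd and Ctsz had values from 0.01 to 0.21 in that comparison and from -0.15 to -0.08 in DEX + TE against DEX muscle.

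Markers of fibroblasts and macrophages are given beside the cathepsins, since these whole-muscle samples hold both cell types. The 10 fibroblast markers, all at 50 or more on every array, summed to 28680 to 30730 in DEX + TE muscle, 19050 to 22440 in DEX muscle and 31240 to 46570 in control muscle. Bright markers weigh most in such a sum. Dcn had a mean of 14800 within a mean sum of 21300 in DEX muscle, and 21170 within 40680 in control muscle. In DEX against control muscle 8 of the 10 had a negative log2 fold change at an unadjusted p under 0.05 and 3 were called (Col1a1, Col1a2 and Pcolce), while 1 marker, Fbln1, was higher at an unadjusted p under 0.05 (0.73). Among all genes 9.16% were lower and 6.19% higher by that rule. The 16 macrophage markers measured of 17 summed to 3043 to 3400 in DEX + TE muscle, 2033 to 2800 in DEX muscle and 2066 to 3444 in control muscle, and 0 were called. At 50 or more on all arrays of their group were 13 of the 16 in DEX + TE muscle, 8 in DEX muscle and 11 in control muscle. By value 11 of the 16 were lower and 5 higher in DEX against control muscle, with 2 lower and 0 higher at an unadjusted p under 0.05. By value 10 of 10 fibroblast markers and 14 of 16 macrophage markers were higher in DEX + TE against DEX muscle. Of these, 6 fibroblast and 5 macrophage markers had an unadjusted p under 0.05, against 5.95% of all genes, and 0 were called. The macrophage markers counted include Aif1, which passed the signal filter only through DEX + TE muscle. Its signals were 61.9 to 71.0 there and 5.0 to 35.1 in DEX muscle, so the filter favoured its count as higher. C1qa, also counted, had DEX signals of 14.5, 6.1 and 80.6. The part of the fibroblast and macrophage markers in the cathepsin values was not tested.

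**Figure D4:**
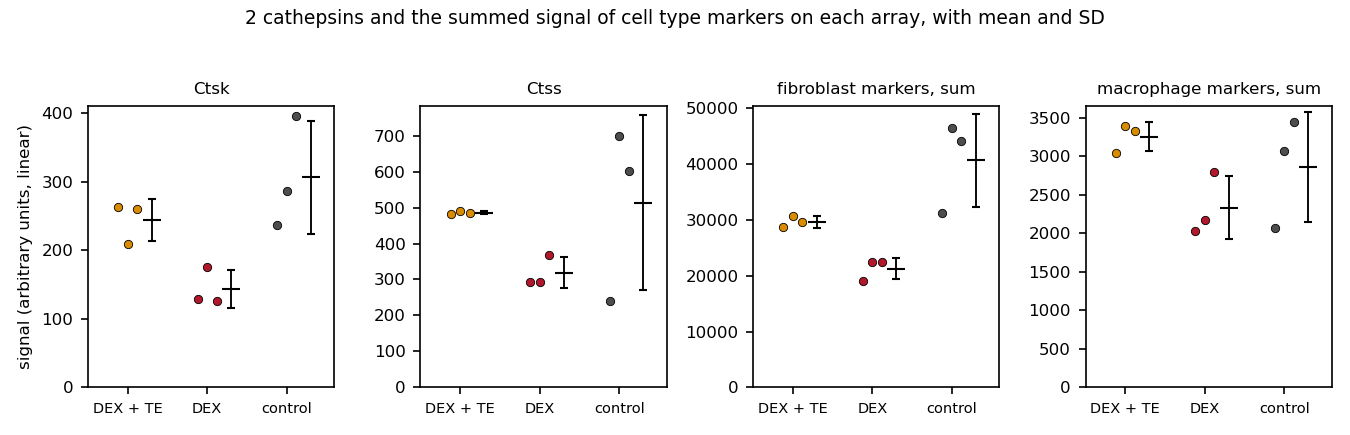
Signal of Ctsk and Ctss and the summed signal of 10 fibroblast and 16 macrophage markers on each array of DEX + TE, DEX and control muscle, with mean and SD of 3 arrays. The DEX arrays are the lowest for Ctsk (127 to 176) and for the fibroblast sum (19050 to 22440).

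Lamp1 and Lamp2 encode the main glycoproteins of the lysosomal membrane. Lamp1 had signals of 12550, 12080 and 13150 in DEX + TE muscle, 12650, 13600 and 14030 in DEX muscle and 14480, 12890 and 13660 in control muscle, with overlapping groups and a log2 fold change of -0.03 ± 0.10 in DEX against control muscle, a sign that changed under other scalings. The brightest Lamp2 probe set had signals of 4368, 4679 and 4828 in DEX + TE muscle, 4806, 4959 and 4584 in DEX muscle and 3777, 4195 and 4204 in control muscle. Both DEX-injected groups lay above control muscle, with a log2 fold change of 0.24 ± 0.10 in DEX against control muscle (limma adjusted p = 0.319).

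The 3 other Lamp2 probe sets had larger values, and 1 of them was the only one called among the 50 further probe sets tested for the listed genes. It had signals of 2056, 2194 and 2090 in DEX + TE muscle, 2322, 2223 and 2003 in DEX muscle and 1393, 1415 and 1359 in control muscle. The DEX arrays and the DEX + TE arrays overlapped, and all lay well above the control arrays. Its log2 fold change was 0.65 ± 0.09 in DEX against control muscle (limma adjusted p = 0.0416), 0.61 in DEX + TE against control muscle (adjusted p = 0.0593) and -0.04 in DEX + TE against DEX muscle.

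The call for this Lamp2 probe set was near the threshold. It held in 4 of 18 alternative settings and was lost on leaving out any 1 of the 9 arrays. The limma adjusted p-values ran from 0.000956 to 0.174, while the log2 fold change stayed between 0.60 and 0.75. Rank Product, 1 of the settings in which the call was lost, gave an adjusted p of 0.67 and is not read as evidence. The remaining Lamp2 probe sets had log2 fold changes of 0.83 ± 0.14 (limma adjusted p = 0.0636) and 0.49 ± 0.17 (adjusted p = 0.247) in DEX against control muscle. The first of these was called in 2 of 18 settings, with the filter at 100 (adjusted p = 0.0284) and with the variance trend (adjusted p = 0.00148), and the second in 0. All 4 sets separated both DEX-injected groups from control muscle. Which Lamp2 transcripts each set reads was not determined here.

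**Figure D5:**
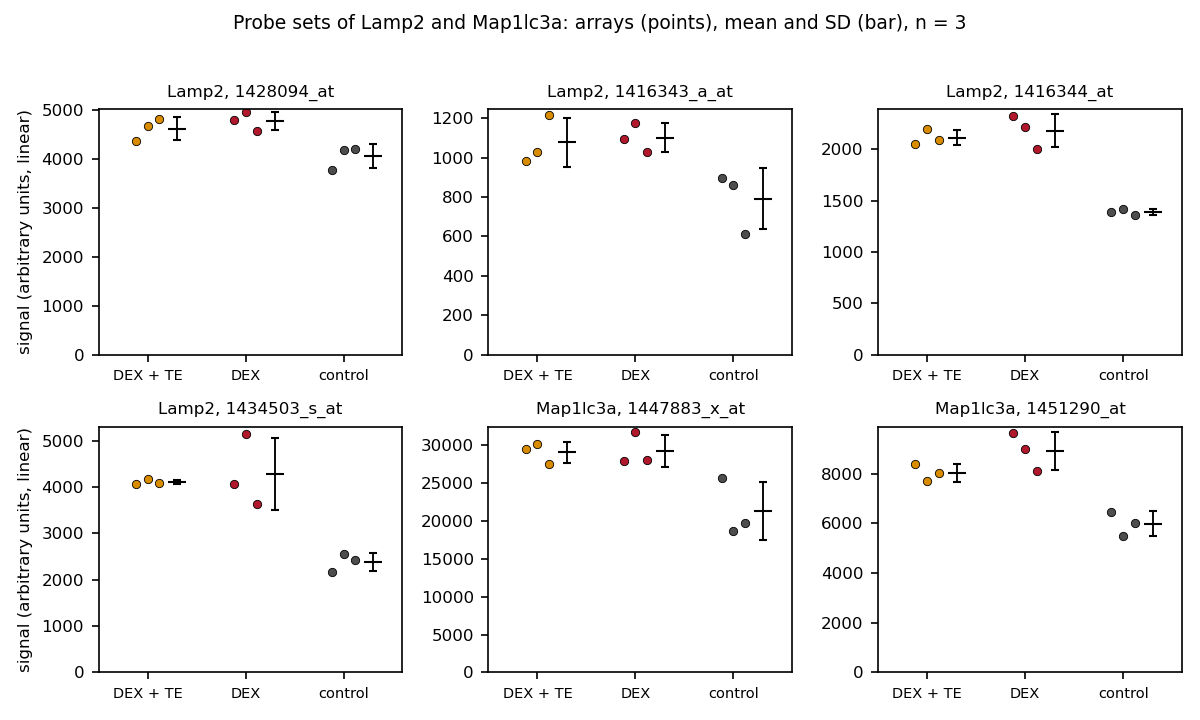
Signal (linear, arbitrary units) on each array of DEX + TE, DEX and control muscle for the 4 probe sets of Lamp2 and the 2 of Map1lc3a, with mean and SD of 3 arrays. Every DEX and DEX + TE array lies above every control array in all 6 panels, and only the Lamp2 set in the top right panel was called in DEX against control muscle.

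Npc1, a cholesterol transporter gene of the lysosomal membrane, had a log2 fold change of 0.06 in DEX against control muscle and -0.29 in DEX + TE against DEX muscle, with overlapping arrays. Among the genes of sugar and lipid handling, Hexa, a hexosaminidase subunit gene, had signals of 2335, 2756 and 2641 in DEX + TE muscle, 3544, 2910 and 2826 in DEX muscle and 3085, 2626 and 2752 in control muscle. All DEX + TE arrays lay below all DEX arrays, with a log2 fold change of -0.26 ± 0.13 (limma adjusted p = 0.694). Gaa, which encodes acid alpha-glucosidase, the enzyme that breaks down glycogen in the lysosome, had signals of 2435, 2683 and 1857 in DEX + TE muscle, 3783, 2543 and 2614 in DEX muscle and 2829, 2330 and 2459 in control muscle. DEX replicate 1 was the highest array, the groups overlapped, and the log2 fold change in DEX + TE against DEX muscle was -0.35 ± 0.20 (adjusted p = 0.724). Npc2 had values of 0.09 and 0.03 in DEX against control and DEX + TE against DEX muscle. Its other probe sets tested disagreed, with -0.045 ± 0.11 and, for a dim one, 0.66 ± 0.22 in DEX against control muscle (limma adjusted p = 0.231 for the dim one). In DEX + TE against control muscle the dim set had 0.98 ± 0.22 (adjusted p = 0.131), and its arrays did not overlap in either comparison with control.

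The 3 listed subunit genes of the proton pump that acidifies the lysosome had values of 0.20 or more in DEX against control muscle. The pump's 14 other subunit genes, from the wider list, had a median of 0.02 there, with 8 above and 6 below 0. None of those had an unadjusted p under 0.05. Atp6v1h had signals of 603, 706 and 645 in DEX + TE muscle, 832, 795 and 953 in DEX muscle and 667, 647 and 601 in control muscle. All DEX arrays lay above all arrays of the other groups, which overlapped each other. limma gave a log2 fold change of 0.43 ± 0.11 in DEX against control muscle (limma adjusted p = 0.163), -0.40 ± 0.11 in DEX + TE against DEX muscle (adjusted p = 0.501) and 0.03 ± 0.11 in DEX + TE against control muscle. A dim second Atp6v1h probe set had a value of -0.14 in DEX against control muscle. Atp6v1a and Atp6v0d1 had overlapping arrays in each comparison.

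A wider list of 114 other autophagy, lysosome and regulator genes also had 0 called in each comparison. Of all probe sets, 0.502% were called in DEX against control, 0.0137% in DEX + TE against DEX and 0.379% in DEX + TE against control muscle. With unadjusted p below 0.05 in DEX against control muscle there were 8 above (7.02%, against 6.19% of all genes) and 8 below control (7.02%, against 9.16%), and the median log2 fold change was -0.001. In DEX + TE against DEX muscle 3 were higher (2.63%, against 5.95%) and 1 lower (0.877%, against 1.48%). There were 6 higher (5.26%, against 7.69%) and 9 lower (7.89%, against 6.77%) in DEX + TE against control muscle. Lgmn, the gene of the lysosomal protease legumain, had signals of 308, 280 and 365 in DEX + TE muscle, 194, 233 and 232 in DEX muscle and 370, 502 and 404 in control muscle. All DEX arrays lay below all others, with a log2 fold change of -0.95 ± 0.16 in DEX against control muscle (limma adjusted p = 0.0636) and 0.53 ± 0.16 in DEX + TE against DEX muscle. In DEX against control muscle Lgmn was called in 2 of 19 settings, with the filter at 100 (adjusted p = 0.0284) and with the variance trend (adjusted p = 0.0111).

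Vps16, a subunit gene of the complexes that tether vesicles to the lysosome, had signals of 188, 158 and 172 in DEX + TE muscle, 287, 308 and 299 in DEX muscle and 138, 245 and 165 in control muscle. All DEX arrays were the highest, with log2 fold changes of 0.75 ± 0.20 in DEX against control muscle (limma adjusted p = 0.167) and -0.79 ± 0.20 in DEX + TE against DEX muscle. Of the other genes with the smallest p in their role in DEX against control muscle, Zfyve1, Gnptab and Prkaa1 had values from 0.35 to 0.56, Galns had the largest, and Wdr45b, Atg10, Ctsc, Galc and Ostm1 had values from -0.48 to -0.29.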

How the data were processed

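Total RNA (250 ng) of tibialis anterior muscle was hybridised to Affymetrix arrays, 1 per mouse. The authors deposited 1 linear intensity per probe set and array, with a mean of 500 on each array after trimming 2% at each end. Robust Multi-array Average is named in the paper's methods. The deposited intensities are linear and their medians differ between arrays (71.5 to 95.0), and whether they come from that method was not determined. The program that wrote them was not given in the sources used here. Columns not used numbered 0.

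From 45101 probe sets 64 control probe sets were removed, the log2 of each intensity was taken without an offset, and 29269 probe sets with a geometric mean of at least 50 in 1 or more groups were tested with limma 3.58.1 (R 4.3.3) over all 9 arrays. Symbols came from the platform annotation (34945 probe sets with 1 symbol, 932 with several, 9160 with none). limma was tested on simulated data and recovered planted changes. The planted changes were larger than the fold changes of nearly all listed genes, so recovery of changes as small as theirs was not tested. Rank Product, which the methods name, was run with 100 permutations as an alternative: on simulated arrays with equal spreads it recovered the planted changes, but with the unequal spreads of these probe sets it missed nearly all of them and made false calls, so its results are not read as evidence for or against any gene.

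Values on every array are given for called genes, for the 5 genes with the smallest unadjusted p in each comparison and for 10 genes well known in muscle atrophy. Ctsh and Ctss were added after their values were seen. Other pathway genes are named up to 2 per role. The genes, the lists and the rules were chosen with earlier results of these data known. Replicates are separate mice by the labels. Alternatives were median centring, quantile normalization, an offset of 16, no filter, a filter at 100, a variance trend, only the 6 arrays compared, a replicate block, the mean over the probe sets of a gene, and leaving out each array. Figures were drawn with Python 3.11.15 and matplotlib 3.10.9.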

Additional observations from a re-analysis of the deposited data

How the results depend on the processing

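No listed gene was called in any comparison under the alternatives, except Ctsk in DEX against control muscle with the variance trend. Leaving out each array in turn gave 0 in each comparison. Map1lc3a and Wipi1 had an adjusted p under 0.05 in 1 or more settings. Both genes missed a call there only through the log2 fold change threshold of 0.6. In DEX against control muscle the lowest adjusted p over 19 settings (limma fits and Rank Product) was 0.0278 for Map1lc3a and 0.0362 for Wipi1. Map1lc3a reached 0.038 in DEX + TE against control muscle. Over 18 settings, further probe sets of Map1lc3a and Wipi1 reached 0.00225 and 0.0175 in DEX against control muscle. Rank Product also called 0, but it failed on simulated arrays with these spreads, so that count says nothing about stability. Replicate numbers did not pair the mice (same-numbered arrays correlated between -0.02 and 0.05 over 9 pairs), and with the replicate block 4 genes, against 5, were higher at an unadjusted p under 0.05 in DEX against control muscle and the call of the Lamp2 probe set was lost (adjusted p = 0.132).

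Median centring moved the median of all genes from -0.03 to 0.07, 0.04 to -0.22 and 0.02 to -0.13 in DEX against control, DEX + TE against DEX and DEX + TE against control muscle. The autophagosome and lysosome medians became 0.16 and 0.21, -0.32 and -0.34, and -0.14 and -0.18. Genes without overlap became 11 higher in DEX against control muscle (23.9%, against 13.7% of all genes), 29 lower in DEX + TE against DEX muscle (63%, against 30.2%), and 0 higher (against 5.45%) and 13 lower (28.3%, against 20.5%) in DEX + TE against control muscle. At an unadjusted p under 0.05, 20 were lower in DEX + TE against DEX muscle, and 0 were higher and 10 lower in DEX + TE against control muscle. Quantile normalization gave 5 lower in the last comparison, the variance trend gave 4 lower in DEX + TE against DEX muscle, and fitting only the 6 arrays compared gave 2 higher there. With the mean over the probe sets of a gene, 1 was lower in DEX against control muscle, 0 were lower and 1 lay below without overlap in DEX + TE against DEX muscle, and 1 was lower and 3 lay below without overlap in DEX + TE against control muscle. The cause of these shifts was not tested. For the settings other than centring no share of all genes is given, so those counts are not read as results about the listed genes.

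In DEX against control muscle the sign turned for Lamp1 (0.0762 with centring, 0.006 with quantile normalization, and -0.0682 to 0.0161 on leaving out 1 array, above 0 without control replicate 1 or DEX replicate 1), for Atp6v1h (-0.0068) and Map1lc3b (-0.0714) with the mean over probe sets, for Sqstm1 (-0.0028 to 0.1249 on leaving out 1 array, below 0 without control replicate 2 or DEX replicate 3) and for 2 dim Wipi1 probe sets (-0.4467 to 0.0949, above 0 without control replicate 2, and -0.5974 to 0.2486, above 0 without DEX replicate 2). The mean over probe sets took in probe sets that failed the signal filter. These included 1 of Map1lc3b (signals of 3.6 to 34.1) and 1 of Atp6v1h (0.81 to 23.8). The Map1lc3b probe sets that were tested all had values above 0 (0.16, 0.137 and 0.085), and those of Atp6v1h had 0.43 and -0.14.

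Leaving out 1 array in DEX against control muscle gave autophagosome medians of 0.0048 to 0.09, lysosome medians of 0.0191 (without DEX replicate 1) to 0.17, 4 to 5 genes higher and 2 to 4 lower at an unadjusted p under 0.05, and 7 to 16 higher and 4 to 7 lower without overlap. In DEX + TE against DEX muscle the medians were -0.11 to -0.04 and -0.09 to -0.07, with 1 to 2 higher and 1 to 2 lower, and 2 to 6 higher and 4 to 12 lower without overlap. In DEX + TE against control muscle they were -0.02 to 0.06 and -0.06 to -0.01, with 2 to 3 higher and 0 to 3 lower, and 6 to 11 higher and 6 to 12 lower without overlap. Fewer arrays separate more easily, so the counts without overlap grow by construction. No share of all genes is given for leaving out an array, so these counts are not read as results about the listed genes. Precision is limited by there being 3 arrays in a group.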
